A study of Mus musculus with 6 samples.

Results

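The potassium channel genes described here are the rows of 6 retinal RNA-seq libraries whose gene symbol starts with Kcn, with Kcnj8 and Kcnj10 left out. The rule took 92 of the 22173 listed genes and did not use their values. By symbol, 40 encode pore-forming subunits of voltage-gated channels and 13 encode their auxiliary subunits. A further 13 are inward rectifiers (Kcnj), 14 are two-pore channels (Kcnk), and 12 belong to the calcium-activated channels and their relatives (Kcnma, Kcnmb, Kcnn, Kcnt and Kcnu). The 3 OIR libraries came from wild-type C57BL/6J mouse pups with oxygen-induced retinopathy, which breathed 75% oxygen from postnatal day 7 to 12 and then room air until retinas were taken at day 17. The 3 Control libraries came from pups of the same strain and genotype that stayed in room air, with retinas taken at the same age. In this model, vessel growth stops in high oxygen, and the underperfused retina grows abnormal vessels after the return to room air. Whether each library came from its own animals is not stated in the labels. All p-values therefore reflect spread among these 6 libraries, part of which may be technical.

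Potassium channels set the resting potential of cells and end electrical signals. Voltage-gated (Kv) channels open on depolarisation, and auxiliary subunits such as the Kv beta, KCNE and KChIP proteins shape their gating and transport. Inward rectifiers (Kir) and two-pore (K2P) channels carry the resting current, and the G protein-gated Kir channels (GIRK) slow neurons after inhibitory transmitters act. Calcium-activated channels, of large (BK) and small (SK) conductance, link calcium entry to repolarisation. In the retina, photoreceptors use a Kv current that shapes the light response, while interneurons and ganglion cells use Kv3, GIRK and BK channels in firing and inhibition.

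More potassium channel genes were lower than higher in OIR. Levels are in RPKM, which scales reads to gene length and to library size, and 49 of the 92 genes reached at least 1 RPKM in at least 3 libraries and were tested. In a limma fit over all 12112 tested genes, 17 of these 49 were lower and 3 were higher in OIR at an adjusted p under 0.05, and 29 did not pass. Over all tested genes, 7.22% were lower and 11.6% were higher. The median log2 fold change was -0.24 over the tested channel genes and 0.03 over all tested genes, and 42 of the 49 had a negative fold change. In 22 of the 49 every OIR library lay below every Control library, and in 5 every OIR library lay above, against 15% and 23.6% of all tested genes. Kcnk12, Kcnk2 and Kcnh5, among these 22, were under 1 RPKM in OIR 1 and OIR 3 and entered the test through Control. Changes were modest, with differences of log2(RPKM + 1) from -0.69 to -0.25 among the 17 lower members. After scaling by median of ratios, 24 members were lower and 2 higher, beside 1268 genes lower and 1331 higher overall. Since whole retina was sequenced, fewer cells of a type and less RNA per cell cannot be told apart.

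The libraries held 35615501 to 38025623 recovered reads. Markers of the lens, a tissue next to the retina, summed to 3845 RPKM in OIR 2, to 44073 RPKM in Control 3, and to 101.1 to 416 RPKM in the other 4 libraries. Control 3 was the lowest Control library for 37 of the 49 tested channel genes (7406 of all 12112 genes), and OIR 2 the highest OIR library for 38 of the 49 (4196 of 12112). Without both libraries, 30 members were lower and 3 higher, where 16% of all genes were lower and 17.3% higher. For most tested members these were the OIR and Control libraries nearest the other group. Leaving them out therefore widens the difference for members, and this count is no separate support. Nor are the cases below where a member passed only without OIR 2 or Control 3. Leaving out single libraries moved the counts to 4 lower and 0 higher without OIR 1, 9 and 0 without OIR 3, 5 and 1 without Control 1, and 10 lower without Control 2. Counts over all 12112 genes moved too, to 212 lower and 513 higher without OIR 1, 348 and 697 without OIR 3, 265 and 658 without Control 1, and 421 and 941 without Control 2. With no filter on level, the calls of 9 lower members ended (Kcne1l, Kcnj6, Kcnab3, Kcnh2, Kcnma1, Kcnk1, Kcnk9, Kcnk12 and Kcnn2), at adjusted p of 0.0524 to 0.0853, and so did that of Kcnd1, at 0.0613. The direction of the 19 called members named here was the same in each of the 13 alternative fits, and the calls of 4 (Kcnip2, Kcnc2, Kcnab1 and Kcna3) passed in each. Exons of 8 called members (Kcnab1, Kcnab3, Kcnj3, Kcnj6, Kcnj9, Kcnk1, Kcnma1 and Kcnn2) overlap another gene in GENCODE M21, and since strand use is not stated, their values are uncertain to that extent.

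Markers of several cell types moved in the same libraries, and their part in the channel results was not tested. Over all tested genes, 7.22% were lower and 11.6% higher, and calls of 1 or 2 markers do not show that a cell type moved. Of 9 amacrine cell markers 7 were lower in OIR and none higher, with a summed level of 179.0 to 228.7 RPKM in OIR and 243.7 to 288.8 RPKM in Control. Of 9 ganglion cell markers 3 were lower and none higher, with sums of 394.2 to 587.6 RPKM in OIR and 604.1 to 671.4 RPKM in Control. Of 7 bipolar cell markers 2 were lower, with sums of 401.2 to 421.7 RPKM in OIR and 415.3 to 486.8 RPKM in Control. Of 6 markers of Müller glia 4 were lower and 1 higher, at 1264 to 1520 RPKM in OIR and 1539 to 1786 RPKM in Control. Endothelial markers were higher in 6 of 8, at 79.1 to 86.9 RPKM in OIR and 48.6 to 53.6 RPKM in Control, and microglial markers in 6 of 7 tested, at 76.0 to 99.7 RPKM in OIR and 27.0 to 29.8 RPKM in Control. For pericytes and smooth muscle, 5 of 7 tested markers were higher, at 60.4 to 79.2 RPKM in OIR and 25.8 to 44.3 RPKM in Control. The 8 rod markers, 2 of them higher, summed to 12825 to 13284 RPKM in OIR and 10702 to 13053 RPKM in Control, and none of the markers counted so far was at 0 in any library. Of the tested markers, 1 of 3 for horizontal cells, 1 of 2 for pigment epithelium and 1 of 1 for skeletal muscle were lower, cones had 1 higher and 1 lower of 6, and astrocytes 2 higher of 3. The muscle markers Myh1, Myh2 and Tnnt3 were at 0 in some libraries.

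**Figure D1:**
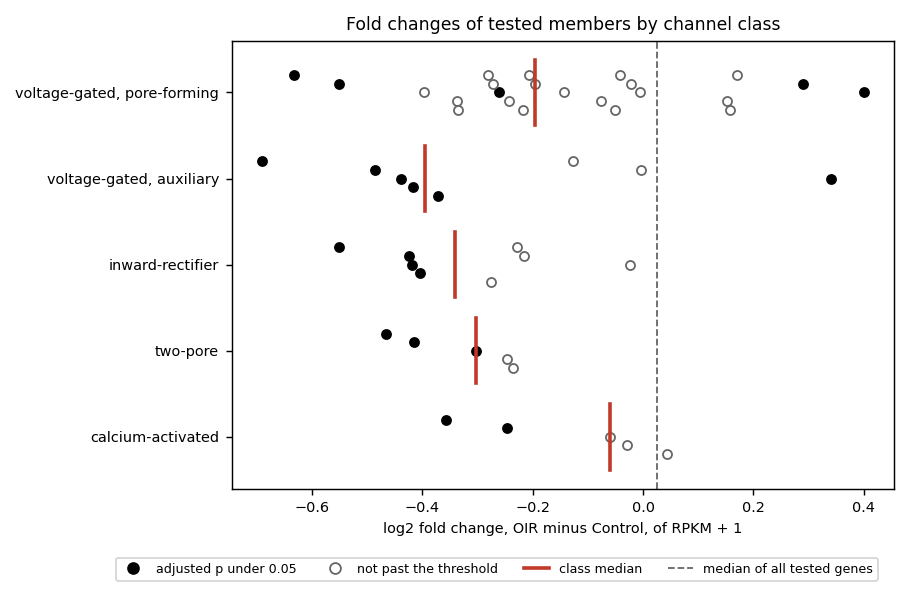
Log2 fold change (OIR minus Control, of RPKM + 1) of each tested member, 1 row per channel class. Filled points passed an adjusted p of 0.05, open points did not, red bars are class medians, and the dashed line is the median of all 12112 tested genes, at 0.03. All 8 inward rectifiers and all 5 two-pore genes lie left of 0. The two-pore genes Kcnk12 and Kcnk2 reached the level for testing through Control, where they were higher.

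Counts by class, and by subfamily in later paragraphs, are set beside 7.22% lower and 11.6% higher over all tested genes. No test between classes or subfamilies was made, and 1 call among so few genes does not set a subfamily apart. Among pore-forming voltage-gated genes, 3 of 23 tested were lower (13.0%) and 2 higher (8.70%), with a median log2 fold change of -0.20. Among their auxiliary genes, 5 of 8 were lower and 1 higher, with a median of -0.39, so that the voltage-gated genes together gave 8 lower and 3 higher of 31. Inward rectifiers had 4 lower of 8 and a median of -0.34, two-pore channels 3 lower of 5 and a median of -0.30, and calcium-activated channels 2 lower of 5 and a median of -0.06, none with a higher member. Of the two-pore genes, Kcnk12 and Kcnk2 entered the test through Control, where they were higher. The summed level of the pore-forming voltage-gated genes was 425 ± 12.6 RPKM in OIR and 442 ± 47.5 RPKM in Control (SD, n = 3 each). That of the inward rectifiers was 146 ± 8.11 RPKM in OIR and 179 ± 17.8 RPKM in Control, and that of the two-pore genes 20.2 ± 2.08 RPKM in OIR and 25.9 ± 1.65 RPKM in Control. Without OIR 1 the counts of lower genes were 0 for inward rectifiers, two-pore and calcium-activated genes, and 2 for the auxiliary genes. Without Control 1 they were 1, 0 and 0 for those 3 classes and 2 for the auxiliary genes, and without OIR 3 they were 0 for the two-pore and calcium-activated genes. The lower count over all tested genes also fell, from 875 to 212 without OIR 1, 265 without Control 1 and 348 without OIR 3. Among pore-forming genes 8 were lower without OIR 2, without Control 3, and after median-of-ratios scaling. All-gene lower counts were then 1293, 1070 and 1268.

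Sequence upstream of 3 members is shown because they lead the results: Kcnip2 had the smallest adjusted p of the 49 tested members, Kcnj9 was the most abundant member that fell, and Kcne2 is the member that rose for which a start window was at hand. Each window, from RefSeq on GRCm38.p6, covers 250 bases before and 50 after an annotated start, 5′ to 3′ on the gene's strand. Bases after the start were found, on this strand, in a GENCODE M21 transcript of each gene. Capitals mark ACGTG, the core bound by hypoxia-inducible factors, and TAATCC, the core bound by the photoreceptor factor CRX, on either strand. For Kcne2, the more upstream of its 2 windows is shown, chosen after the matches were seen. The windows lie at chr19:45816014-45816313, minus strand (Kcnip2), chr1:172329273-172329572, minus strand (Kcnj9) and chr16:92292139-92292438, plus strand (Kcne2).
Kcnip2: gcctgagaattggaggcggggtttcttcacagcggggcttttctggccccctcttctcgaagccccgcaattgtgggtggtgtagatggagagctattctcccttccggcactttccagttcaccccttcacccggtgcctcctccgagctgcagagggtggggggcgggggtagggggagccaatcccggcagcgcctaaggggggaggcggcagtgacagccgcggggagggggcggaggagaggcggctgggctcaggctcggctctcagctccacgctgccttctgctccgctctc
Kcnj9: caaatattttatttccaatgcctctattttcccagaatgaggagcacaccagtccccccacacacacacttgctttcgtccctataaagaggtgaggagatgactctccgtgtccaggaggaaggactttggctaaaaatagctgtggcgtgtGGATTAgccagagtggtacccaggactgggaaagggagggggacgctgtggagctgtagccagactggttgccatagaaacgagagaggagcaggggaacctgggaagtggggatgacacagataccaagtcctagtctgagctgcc
Kcne2: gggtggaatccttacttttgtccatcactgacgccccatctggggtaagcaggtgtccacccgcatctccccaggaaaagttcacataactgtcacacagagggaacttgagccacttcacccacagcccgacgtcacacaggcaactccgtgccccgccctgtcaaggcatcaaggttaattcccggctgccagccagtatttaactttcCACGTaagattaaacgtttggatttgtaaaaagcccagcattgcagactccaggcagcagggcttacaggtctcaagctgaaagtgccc
The printed Kcne2 window held ACGTG, as CACGT on this strand, 39 bases before the start, and its other window held neither core. The Kcnj9 window held TAATCC, as GGATTA, 97 bases before the start. No match to either was found in the Kcnip2 window. Windows were at hand for 67 members. Of their 92 windows, 17.4% held ACGTG and 3.26% held TAATCC, against 19.6% and 7.06% of all 32851 windows of this length. Of the 22 windows of 14 members that were lower, 3 held ACGTG and 1 held TAATCC. The cores do not overlap in letters, and a match is a stretch of letters, not a shown binding site.

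Of the 10 silent Kv subunit genes, whose proteins work only together with other Kv subunits, 4 were tested and none passed. Kcnv2, which encodes Kv8.2, a subunit of the photoreceptor Kv current, was at 129.6, 127 and 125 RPKM in OIR and 123, 124 and 96.6 RPKM in Control. All OIR values lay above all Control values, with OIR 3 close to Control 2. The log2 fold change of Kcnv2 was 0.16 (95% interval -0.05 to 0.36, adjusted p 0.261, limma), and 0.0408 without Control 3. Kcng4, a silent Kv subunit, was at 9.37 ± 1.31 RPKM in OIR and 8.35 ± 1.35 RPKM in Control (SD, n = 3 each, limma adjusted p 0.428).

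Among Kv1 genes, whose channels sit in axons and set firing threshold, 1 of 5 tested was lower and none higher (7.22% and 11.6% of all tested genes). Kcna3, which encodes Kv1.3, known in T cells, microglia and neurons, was at 1.14, 1.68 and 1.24 RPKM in OIR and 2.68, 2.60 and 2.05 RPKM in Control. All OIR values lay below all Control values, with OIR 2 nearest to Control 3. The ratio of the means was 0.554 and the log2 fold change -0.55 (SE 0.112, adjusted p 0.00929, limma). Kcna5, the most abundant Kv1 gene, was at 30.8, 34.2 and 28.1 RPKM in OIR and 38.7, 42.1 and 33.3 RPKM in Control. Its groups overlapped only through OIR 2 and Control 3. Its limma adjusted p of 0.0658 became 0.0370 after median-of-ratios scaling, 0.0167 without OIR 2 and 0.0292 without Control 3. On leaving out any other single library Kcna5 did not pass, at 0.176 to 0.214. Kcna1, the gene of the axonal channel Kv1.1, was at 4.54 ± 0.398 RPKM in OIR and 5.47 ± 0.837 RPKM in Control (SD, n = 3 each). Its limma adjusted p was 0.167, 0.0445 without Control 3, and 0.0960 to 0.470 without any other single library.

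Kv3 channels, which repolarise fast-firing neurons, had 1 lower gene of 4, where 7.22% of all tested genes were lower. Kcnc2, the gene of Kv3.2, was at 1.94, 2.84 and 1.84 RPKM in OIR and 4.35, 3.999 and 3.46 RPKM in Control. Its groups did not overlap, and its log2 fold change was -0.63 (SE 0.123, adjusted p 0.00799, limma). The length recovered from its values was 2.116 times its GENCODE M21 exons, so part of its reads may lie outside them. Kcnc1, the gene of Kv3.1, was at 11.4, 14.8 and 11.4 RPKM in OIR and 17.1, 17.02 and 13.9 RPKM in Control. OIR 2 lay above Control 3, and Kcnc1 did not pass (log2 fold change -0.34, adjusted p 0.0607, limma). It passed without OIR 2, at 0.00386, without Control 3, at 0.0396, and after median-of-ratios scaling, at 0.0419. On leaving out any other single library Kcnc1 did not pass, at 0.173 to 0.212. Kcnc4, the gene of Kv3.4, had a log2 fold change of -0.40 and an adjusted p of 0.0894.

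Among ERG and related channels, Kcnh2, which encodes the ERG1 channel also known from heart repolarisation, was lower. It was at 17.3, 19.7 and 19.3 RPKM in OIR and 23.6, 22.5 and 22.0 RPKM in Control, with no overlap. The log2 fold change was -0.26 (SE 0.0711, adjusted p 0.0289, limma). The call was lost on leaving out OIR 1 (0.139), OIR 3 (0.0670), Control 1 (0.112) or Control 2 (0.0686). The other 3 tested genes of this group, Kcnh1, Kcnh5 and Kcnh6, had log2 fold changes from -0.21 to -0.08 and did not pass.

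Among Kv4 genes, whose channels carry a fast A-type current, 1 of 2 tested was higher in OIR and none lower (11.6% and 7.22% of all tested genes). Kcnd1, the gene of Kv4.1, was at 2.28, 2.30 and 2.14 RPKM in OIR and 1.45, 1.67 and 1.86 RPKM in Control. The groups did not overlap, and all values were low. Its log2 fold change was 0.29 (SE 0.0887, adjusted p 0.0442, limma), and its call ended after median-of-ratios scaling, at 0.0652. It also ended without any single library other than Control 3, at 0.0632 to 0.161. Kcnd3, the gene of Kv4.3, had a log2 fold change of -0.24 and an adjusted p of 0.0700.

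**Figure D2:**
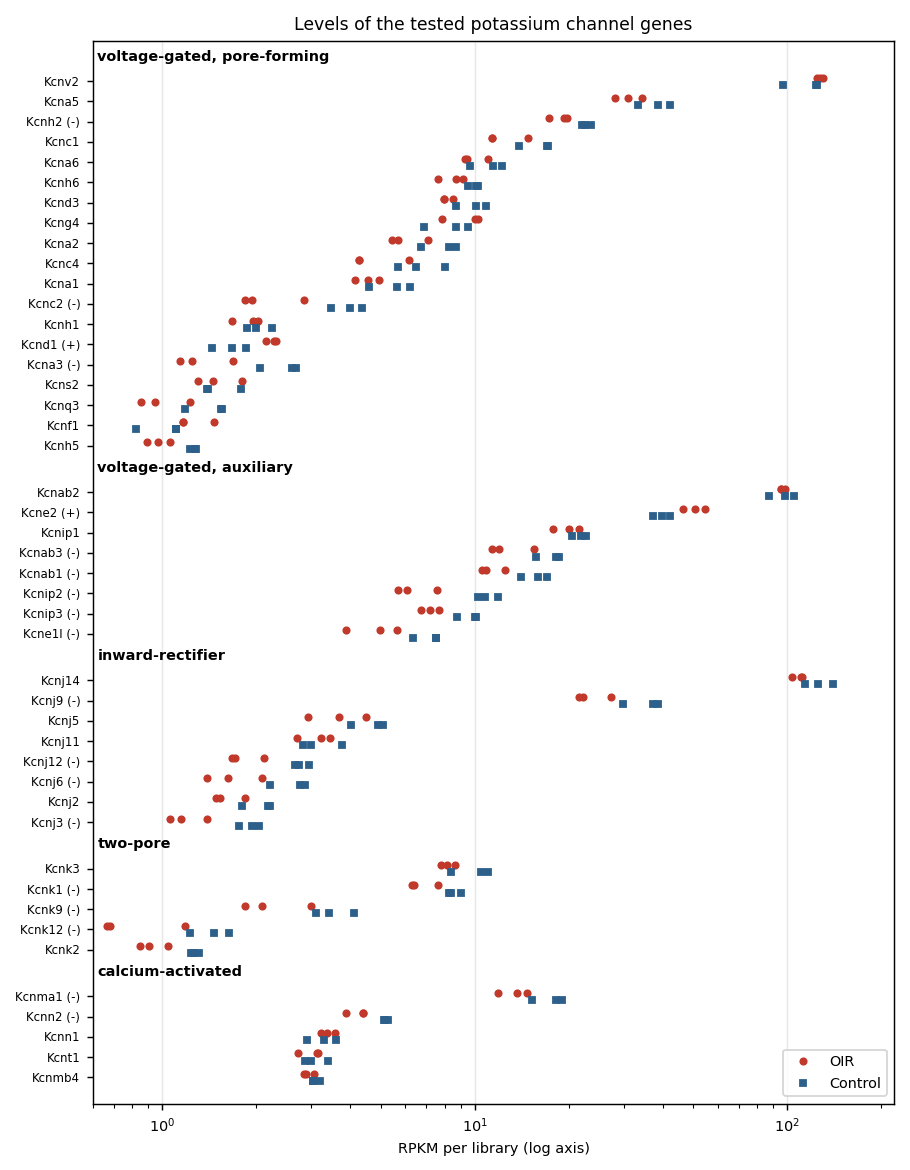
RPKM per library (log axis) of 45 tested members, ordered by level within each class, with OIR libraries as circles above Control libraries as squares. A plus or minus sign marks members that were higher or lower in OIR. Levels span from the 0.665 RPKM of Kcnk12 in OIR 3 to the 140.1 RPKM of Kcnj14 in Control 2.

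The auxiliary subunits held the member with the smallest adjusted p among the 49 tested on RPKM. Kcnip2, which encodes KChIP2, a calcium sensor that binds Kv4 channels, was at 5.69, 7.55 and 6.06 RPKM in OIR and 11.8, 10.8 and 10.2 RPKM in Control. Every OIR library lay well below every Control library, and OIR 2 was the highest of the OIR libraries. The ratio of the means was 0.588 and the log2 fold change -0.69 (SE 0.0992, adjusted p 0.00188, limma), and the lack of a match in its printed start window does not bear on this. Kcnip3, the gene of KChIP3, which also acts as the transcription factor DREAM, was at 6.71, 7.70 and 7.20 RPKM in OIR and 9.996, 10.1 and 8.75 RPKM in Control. Its log2 fold change was -0.37 (adjusted p 0.0124), and the call ended without OIR 1 or Control 1, at 0.0671 and 0.0576. Kcnip1, at the highest RPKM of the 3 tested KChIP genes, was at 19.8 ± 1.86 RPKM in OIR and 21.7 ± 1.16 RPKM in Control (SD, n = 3 each, limma adjusted p 0.288, and 0.0336 without both OIR 2 and Control 3). On leaving out any single library Kcnip1 did not pass, at 0.121 to 0.723.

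Of the 3 Kv beta genes, which encode cytoplasmic subunits of Kv1 channels, 2 were lower, where 7.22% of all tested genes were lower. Kcnab1 was at 10.8, 12.5 and 10.6 RPKM in OIR and 16.97, 15.9 and 14.1 RPKM in Control, with no overlap between the groups. Its log2 fold change was -0.44 (SE 0.0875, adjusted p 0.00868, limma). Kcnab3 was at 11.4, 15.4 and 11.9 RPKM in OIR and 18.1, 18.6 and 15.7 RPKM in Control, and OIR 2 lay just below Control 3. Its log2 fold change was -0.42 (adjusted p 0.0275), and its call ended without OIR 1, OIR 3, Control 1 or Control 2, at 0.111, 0.0891, 0.101 and 0.0924. Kcnab2, the most abundant of the 3, was at 96.4 ± 1.92 RPKM in OIR and 96.9 ± 8.90 RPKM in Control (SD, n = 3 each), with a 95% interval of the log2 fold change from -0.17 to 0.16 (limma adjusted p 0.978).

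The KCNE genes moved in both directions. Kcne2, whose small membrane protein modulates several Kv channels, was at 50.7, 46.4 and 54.6 RPKM in OIR and 42.1, 39.8 and 37.2 RPKM in Control. All OIR values lay above all Control values, and the log2 fold change was 0.34 (SE 0.0759, adjusted p 0.0132, limma). Kcne1l, also called Kcne5, was at 4.96, 5.65 and 3.87 RPKM in OIR and 7.49, 6.36 and 7.50 RPKM in Control. It had a log2 fold change of -0.49 (SE 0.114, adjusted p 0.0173). The call of Kcne2 ended without OIR 1 or OIR 3, at 0.0580 and 0.0610, and that of Kcne1l without OIR 1, Control 1 or Control 3, at 0.0562, 0.0722 and 0.0595.

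**Figure D3:**
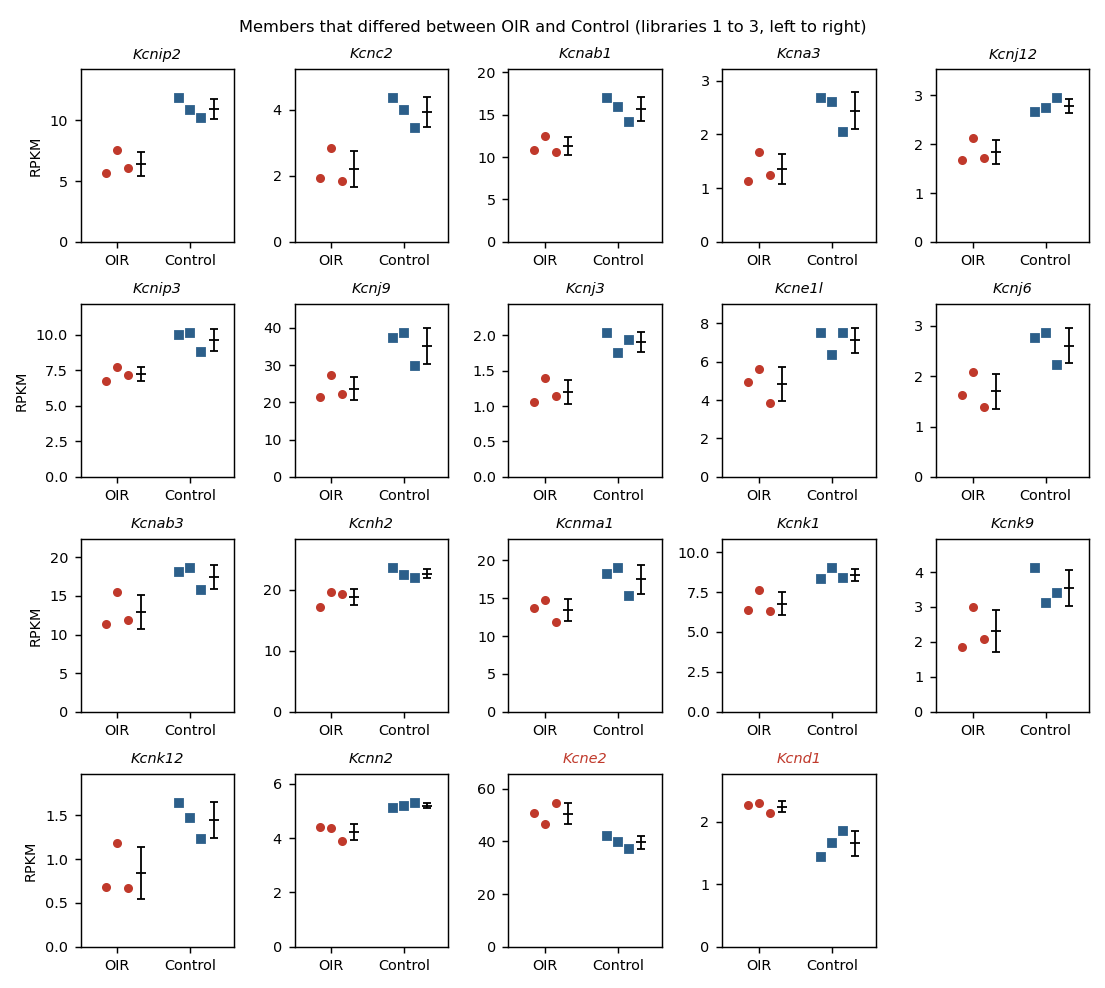
RPKM in each library of 19 members that differed, with 1 panel per gene, OIR at left and Control at right, axes starting at 0. Black bars are the mean and SD of 3 libraries, and red gene names mark the 2 of these that were higher. In none of the panels do the 2 groups overlap. The genes were called on these same values, so this is no separate support. Groups lay apart for 15% of all tested genes with lower and 23.6% with higher values in OIR.

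Among inward rectifiers, 3 of the 4 GIRK genes were lower and none higher (7.22% and 11.6% of all tested genes). Kcnj9, the gene of GIRK3 and the most abundant GIRK gene, was at 21.5, 27.3 and 22.2 RPKM in OIR and 37.2, 38.6 and 29.7 RPKM in Control. The groups did not overlap, and OIR 2 and Control 3 were the nearest pair. Its ratio of means was 0.673 and its log2 fold change -0.55 (SE 0.115, adjusted p 0.0129, limma). Kcnj3, which encodes GIRK1, the obligate partner of many GIRK channels, was at 1.06, 1.39 and 1.15 RPKM in OIR and 2.03, 1.76 and 1.93 RPKM in Control. Kcnj6, the gene of GIRK2, was at 1.62, 2.08 and 1.39 RPKM in OIR and 2.75, 2.86 and 2.22 RPKM in Control. Neither pair of groups overlapped, and their log2 fold changes were -0.41 and -0.42, with limma adjusted p of 0.0147 and 0.0269. Kcnj5, the gene of GIRK4, was at 2.92, 4.502 and 3.69 RPKM in OIR and 5.09, 4.89 and 4.01 RPKM in Control, and OIR 2 lay above Control 3. It did not pass (log2 fold change -0.28, adjusted p 0.152, limma), but did without OIR 2, at 0.0199. On leaving out any other single library Kcnj5 did not pass, at 0.101 to 0.476. The calls of Kcnj9 and Kcnj3 ended without OIR 1, at 0.0583 and 0.0753, and without Control 1, at 0.0578 and 0.0632, and that of Kcnj6 without OIR 1, OIR 3, Control 1 or Control 2, at 0.0998, 0.0947, 0.0953 and 0.0891.

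Of the Kir2 genes, whose channels hold the resting potential, Kcnj12 was lower. It encodes Kir2.2 and was at 1.67, 2.12 and 1.71 RPKM in OIR and 2.66, 2.75 and 2.94 RPKM in Control, with no overlap. The log2 fold change was -0.42 (SE 0.0905, adjusted p 0.0117, limma), and the call ended without OIR 1, at 0.0597. Kcnj14, which encodes Kir2.4 and was the most abundant inward rectifier, was at 110.5, 111 and 103 RPKM in OIR and 125, 140.1 and 114 RPKM in Control. Its groups did not overlap, but it did not pass (log2 fold change -0.22, adjusted p 0.0881, limma). It passed after median-of-ratios scaling, at 0.0390, and without Control 3, at 0.0288. On leaving out any other single library Kcnj14 did not pass, at 0.0751 to 0.278. Kcnj2, the gene of Kir2.1, was at 1.62 ± 0.193 RPKM in OIR and 2.07 ± 0.229 RPKM in Control (SD, n = 3 each, limma adjusted p 0.117). Kcnj11, the pore of the ATP-sensitive channel Kir6.2, had a log2 fold change of -0.02 (95% interval -0.26 to 0.21).

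Two-pore genes were low and all 5 tested ones had negative fold changes. Kcnk12 and Kcnk2 were under 1 RPKM in OIR 1 and OIR 3 and entered the test through Control, where they were higher. Their direction, and the call of Kcnk12, are therefore no separate support for a fall. Kcnk9, the gene of the acid-sensitive channel TASK-3, was at 1.84, 3.00 and 2.09 RPKM in OIR and 4.12, 3.10 and 3.41 RPKM in Control, with OIR 2 just below Control 2. Kcnk1, the gene of TWIK-1, was at 6.40, 7.61 and 6.30 RPKM in OIR and 8.29, 9.002 and 8.39 RPKM in Control. Kcnk12, the gene of the halothane-inhibited family member THIK-2, was at 0.681, 1.18 and 0.665 RPKM in OIR and 1.64, 1.46 and 1.23 RPKM in Control. The groups overlapped for none of these, and the log2 fold changes were -0.47 for Kcnk9, -0.30 for Kcnk1 and -0.41 for Kcnk12, with limma adjusted p of 0.0352, 0.0313 and 0.0373. All 3 calls ended without OIR 1, OIR 3 or Control 1, at 0.0780 to 0.147. Those of Kcnk1 and Kcnk12 also ended without Control 2, at 0.102 and 0.0943, and those of Kcnk1 and Kcnk9 without Control 3, at 0.0518 and 0.0782. The call of Kcnk9 also ended with limma-voom on recovered reads, at 0.0583. Kcnk3, the gene of TASK-1 and the two-pore gene with the highest RPKM, was at 8.19 ± 0.417 RPKM in OIR and 9.96 ± 1.37 RPKM in Control (SD, n = 3 each). Its limma adjusted p was 0.0956, 0.0190 without Control 3, and 0.0681 to 0.279 without any other single library. Kcnk2, which encodes the stretch-sensitive channel TREK-1, had a log2 fold change of -0.24 and an adjusted p of 0.0816.

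Among calcium-activated genes the BK pore and 1 SK gene were lower. Kcnma1, the BK pore gene, was at 13.7, 14.7 and 11.9 RPKM in OIR and 18.2, 19.0 and 15.3 RPKM in Control, with no overlap. Its log2 fold change was -0.36 (SE 0.0968, adjusted p 0.0289, limma). Kcnn2, the gene of SK2, was at 4.39, 4.39 and 3.88 RPKM in OIR and 5.11, 5.17 and 5.29 RPKM in Control, and its log2 fold change was -0.25 (adjusted p 0.0472). The call of Kcnma1 ended without OIR 1, OIR 3, Control 1 or Control 2, at 0.0876 to 0.107, and that of Kcnn2 without any single library other than OIR 2, at 0.0733 to 0.198. Kcnn1, the gene of SK1, Kcnmb4, the BK beta subunit gene of neurons, and Kcnt1, the gene of the sodium-activated channel Slack, had log2 fold changes of 0.04, -0.06 and -0.03 and adjusted p of 0.631 to 0.847.

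The other 43 members did not reach the level for testing. They included 2 that were listed at 0 in every library, Kcnk16 and Kcnk18. In 10 of the 41 members above 0 every OIR value lay above every Control value, and in 7 every OIR value lay below. Among all 5841 genes above 0 that were not tested, these shares were 13.9% and 6.44%. All members in this and the next paragraph other than Kcnj13, Kcnj16 and Kcnn4 were named after their values were seen. Among those with higher values, Kcnq1, a KCNQ channel gene of heart and epithelia, had 76, 64 and 103 recovered reads in OIR and 10, 23 and 25 in Control. Kcnk6, the gene of TWIK-2, had 53, 33 and 46 reads in OIR and 13, 12 and 17 in Control. Kcne4, whose protein damps Kv1 and KCNQ channels, had 21, 18 and 28 reads in OIR and 8, 6 and 3 in Control. Kcne3, an epithelial partner of Kcnq1, had 23, 13 and 19 reads in OIR and 1, 0 and 2 in Control, a ratio per depth of 18.1 with an exact 95% counting interval of 5.86 to 90.2. Kcna7, the gene of Kv1.7, had 10, 13 and 11 reads in OIR and 1, 1 and 0 in Control, a ratio of 16.7 with an interval of 4.29 to 144. For Kcnq1, Kcnk6 and Kcne4 the ratios were 4.13 (3.09 to 5.59), 3.10 (2.17 to 4.49) and 3.88 (2.25 to 7.05). All these intervals pool the libraries of a group and cover counting error only. They were computed for members picked because their groups do not overlap, so an interval above 1 is no separate support for a rise. Exons of Kcnq1 (Kcnq1ot1) and Kcne3 (Gm34821) overlap other genes, so their counts are uncertain to that extent. Kcnn4, the gene of the intermediate-conductance channel of microglia and vessels, had 6, 2 and 7 reads in OIR and 1, 0 and 0 in Control.

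Several members below the level had many reads over a long gene length. The length recovered from the values was over 2 times the joined exons of the GENCODE M21 gene for 16 of 90 members, 6 of them tested. Among these 6 were the lower members Kcnc2, Kcnj3, Kcnj6, Kcnk1 and Kcnk12, at ratios of 2.116, 2.142, 2.944, 2.439 and 3.868. A longer length lowers RPKM, and low RPKM shrinks the fold change of log2(RPKM + 1) at any length. For Kcnk12 the fold change was -0.41 on this scale and -0.82 in limma-voom on reads, and for Kcnj3 -0.41 and -0.68. For Kcna3, at a length ratio of 1.035, it was -0.55 and -0.86, and for Kcnk1, at 2.439, -0.30 and -0.34. For Kcnip4, the gene of the Kv4 partner KChIP4, the ratio of lengths was 45.4, and it had 1078, 1440 and 1185 reads in OIR against 2399, 2256 and 2039 in Control. Kcnh7, an ERG channel gene, had 291, 531 and 412 reads in OIR and 866, 654 and 572 in Control. Reads counted over such lengths, also those of Kcnc2, Kcnj3, Kcnj6, Kcnk1 and Kcnk12, may lie outside the GENCODE exons of the channel gene. Exons of Kcnip4 (5730480H06Rik, Gm20700), Kcnh7 (Gca) and Kcnj13 (Gigyf2) also overlap other genes, so these counts are uncertain to that extent. A limma-voom fit on recovered reads, chosen after seeing the data and taking genes with at least 10 reads in at least 3 libraries, held 80 members. It called 24 members lower and 8 higher, where 6.98% of all 15033 genes were lower and 11.3% higher. Of the members not tested on RPKM, it called Kcnip4, Kcna4, Kcnb2, Kcnh7 and Kcnt2 lower, with log2 fold changes of -0.88, -0.53, -0.58, -0.81 and -1.29. It called Kcnq1, Kcnk6, Kcne4, Kcne3 and Kcna7 higher, at adjusted p from 0.00311 to 0.0251. Of these, Kcne4, Kcne3 and Kcna7 reached 10 reads only in OIR libraries. They entered this fit through the group where they were high, so their calls are no separate support for a rise. On log2(RPKM + 1) with no filter, 10 members were lower and 7 higher, beside 2.95% and 6.73% of 17953 genes. Kcnj13, the Kir7.1 gene of the pigment epithelium, had 32, 35 and 69 reads in OIR and 31, 90 and 115 in Control, with overlapping groups. Kcnj16, the gene of Kir5.1, had 4, 4 and 13 reads in OIR and 13, 11 and 13 in Control.

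**Figure D4:**
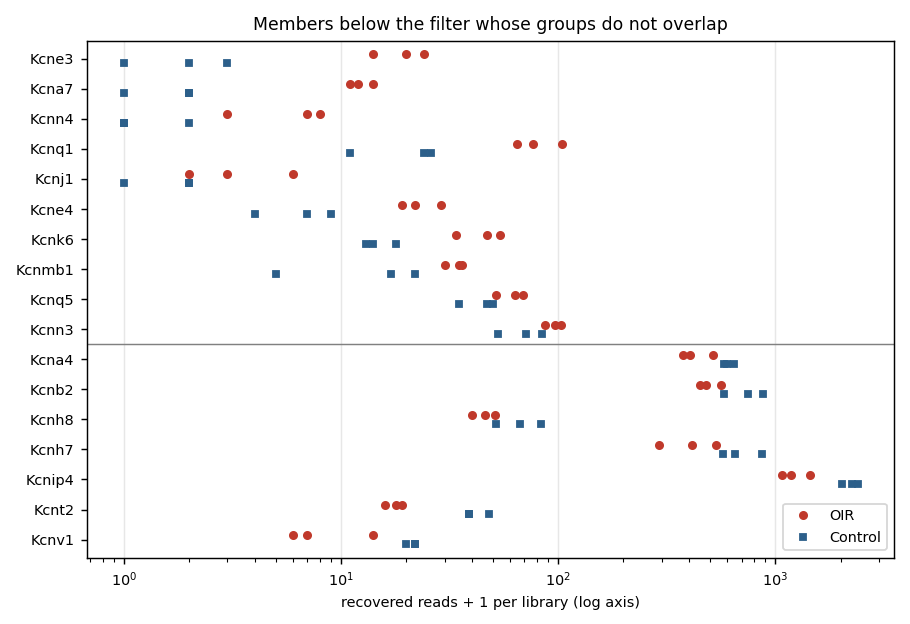
Recovered reads plus 1 per library (log axis) of the 17 members below the level for testing whose groups do not overlap, OIR as circles above Control as squares. The 10 members above the line were higher in every OIR library, and the 7 below it were lower in every OIR library. The members above the line had at most 103 reads in any library, and Kcnip4 below it had 1078 to 2399.

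Genes that work with these channels under other symbols showed changes in both directions. Of 15 tested channel partners, 3 were lower and 1 higher, where 7.22% of all tested genes were lower and 11.6% higher. With no filter on level, the 3 lower calls ended, at adjusted p of 0.0557 to 0.0981. Dpp6 and Dpp10, which encode partners of Kv4 channels, were at 22.9 ± 1.37 and 2.91 ± 0.425 RPKM in OIR and 28.3 ± 2.85 and 4.04 ± 0.648 RPKM in Control (SD, n = 3 each). Lrrc55, the gene of a BK gamma subunit, was at 0.872 ± 0.129 RPKM in OIR and 1.39 ± 0.214 RPKM in Control. It was under 1 RPKM in OIR 1 and OIR 3 and entered the test through Control, so its call is no separate support for a fall. Abcc9, the gene of the SUR2 subunit of ATP-sensitive channels, was at 2.67 ± 0.131 RPKM in OIR and 1.85 ± 0.237 RPKM in Control. The limma adjusted p were 0.0335, 0.0451, 0.0331 and 0.0193, all 4 calls ended without OIR 1, at 0.0876 to 0.182, and the 3 lower calls without OIR 3 or Control 1, at 0.0938 to 0.169. Dpp6, Lrrc55 and Abcc9 also failed without Control 2, at 0.0936, 0.0678 and 0.0703, and Dpp10 without Control 3, at 0.0835.

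Of 22 tested pumps, exchangers and other potassium carriers, 3 were higher and 3 lower, where 11.6% of all tested genes were higher and 7.22% lower. These counts do not set the carriers apart. Slc12a4, which encodes the potassium-chloride cotransporter KCC1, was at 9.22, 7.31 and 12.1 RPKM in OIR and 4.32, 3.79 and 4.05 RPKM in Control, and its log2 fold change was 1.04 (SE 0.147, adjusted p 0.00354, limma). Of the sodium-potassium pump, the beta subunit genes Atp1b1 and Atp1b3 were lower. Atp1b1 was at 187 ± 24.9 RPKM in OIR and 255 ± 29.0 RPKM in Control, and Atp1b3 at 32.5 ± 2.03 RPKM in OIR and 44.7 ± 6.33 RPKM in Control (SD, n = 3 each). Slc24a3, a sodium-calcium-potassium exchanger gene, was at 57.8 ± 6.79 RPKM in OIR and 75.7 ± 7.89 RPKM in Control, with an adjusted p of 0.0239, beside 0.0192 and 0.0120 for Atp1b1 and Atp1b3. The calls of these 3 ended without OIR 1, at 0.0590 to 0.104. Those of Atp1b1 and Slc24a3 were also lost on leaving out OIR 3 or Control 1, at 0.0607 to 0.0948, and that of Slc24a3 without Control 2, at 0.0785. With no filter on level, the calls of Atp1b1 and Slc24a3 ended, at 0.0560 and 0.0656.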

How the data were processed

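RNA of whole mouse retina was measured by sequencing. The authors deposited 1 RPKM value per gene symbol and library, per the file headers and the values. Per the submitters' processing notes, reads passed through TopHat2 2.0.12 with Bowtie2 2.0.6. Build, annotation, counting program and strand were not given in the sources used here. Of 92 members, 28 share annotated exon bases with another gene in GENCODE M21 (among them Kcnab1, Kcnab3, Kcnj9, Kcnj3, Kcnj6, Kcnk1, Kcnma1, Kcnn2 and Kcnq1), so reads of such pairs may be mixed. The library protocol in the labels describes another species, so library type is uncertain.

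Low values are whole multiples of 1 read, which gave relative depth. Absolute depth came from GENCODE M21 transcript lengths of 53 genes. Each gene was given the smallest length that made its 6 values whole within 0.02 of a read, which succeeded for all 17953 genes above 0. The 12112 genes that reached 1 RPKM in 3 or more libraries were tested with limma 3.58.1 in R 4.3.3 (trend and robust) on log2(RPKM + 1), group as the only term, two-sided, with Benjamini-Hochberg adjustment over all tested genes and a threshold of 0.05. Since the filter is on level, members that passed it are not all members. Some, such as Kcnk12, Kcnk2 and Kcnh5, passed it through Control, where they were higher. Fold changes on this scale understate low genes.

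Members and lists were chosen with earlier results of these data known. Genes named are all members past the threshold, the 3 highest in each class, a fixed list, and up to 5 called genes of each other list. Some genes under this rule are counted but not reported by name here. Others are named as such or given as the rest of a subfamily. Alternatives were median-of-ratios scaling, a pseudocount of 0.1, no filter, limma-voom on recovered reads, a replicate block, and libraries left out. Figures used matplotlib 3.10.9.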

Additional observations from a re-analysis of the deposited data

How the results depend on the processing

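The 19 called members named here kept their direction in the 13 alternative fits. Lower counts moved beyond 1.5 times in these cases. With no filter they were 529 for all genes (875 before), 10 for members, 0 for two-pore genes, 1 for calcium-activated genes, 0 for partners and 1 for carriers, where 1 carrier was higher. Without OIR 2 and Control 3 they were 1943 for all genes, 30 for members, 11 for pore-forming voltage-gated genes, 7 for inward rectifiers, 5 for partners and 6 for carriers. Pore-forming genes had 8 lower and 1 higher with median-of-ratios scaling, 6 lower with limma-voom on recovered reads, and 9 lower and 4 higher with limma-voom at 10 reads. With no filter, and also with limma-voom at 10 reads, 3 auxiliary and 1 two-pore gene were higher, and members higher were 7 and 8. Class medians moved with no filter to -0.13 for auxiliary, -0.22 for inward-rectifier, -0.0516 for two-pore, -0.0567 for pore-forming (-0.20 before) and -0.0076 for calcium-activated genes (-0.06 before). The inward-rectifier median was also -0.45 with a pseudocount of 0.1, -0.46 with limma-voom and without OIR 2 and Control 3, and -0.57 with limma-voom at 10 reads. The cause of these moves was not tested. No filter and the 10-read minimum change which genes enter. Kcne4, Kcne3 and Kcna7 passed the 10-read minimum through OIR libraries only.

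With each library left out, counts ran from 513 to 1754 higher and 212 to 1293 lower for all genes, 0 to 3 and 4 to 23 for members, 0 to 2 and 2 to 8 for pore-forming, 0 to 1 and 2 to 5 for auxiliary genes, 0 to 5 lower for inward rectifiers, 0 to 3 for two-pore and 0 to 2 for calcium-activated genes. Partners had 0 to 1 higher and 0 to 4 lower, and carriers 1 to 3 and 0 to 4. Log2 fold changes of 2 uncalled genes changed sign, Kcnab2 (-0.0757 to 0.0554) and Kcnn1 (-0.02 to 0.10, and -0.0176 without OIR 2 and Control 3).

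Deviations of same-numbered libraries from their group means correlated at 0.222, -0.440 and -0.414. Deviations within a group of 3 are tied to each other, and OIR 2 and Control 3, both with lens RNA, correlated at 0.493. These values therefore cannot tell whether the numbers pair the samples, and the labels do not say so. With the replicate number as a block, 18 members were lower and 2 higher, with 6 lower and 1 higher among pore-forming genes and 1 lower among calcium-activated genes. The calls of Kcnk9, Kcnd1, Kcnn2 and Dpp10 ended with the block, at 0.0695, 0.0714, 0.0851 and 0.0815, and Kcna5 and Kcnc1 passed, at 0.0197 and 0.0258. Few reads limit the precision of the low members, and their counting intervals leave out the spread between libraries.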
